A study of Homo sapiens with 4 samples.

Results

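The comparison set the array of M2a macrophages, made with interleukin-4 (IL-4), against the array of unpolarised M0 macrophages. It covered every annotated gene that was detected on at least 1 of those arrays, which was 9875 of the 20045 annotated genes on the platform, where detected means a detection p-value below 0.01. On all 4 arrays of the study together 10395 genes were detected. All cells derived from THP-1, a human line established from an acute monocytic leukemia, so M2a and M0 share 1 leukemic origin. M2a cells were M0 cells that had received IL-4, and M0 cells had received no polarising cytokine. The other arrays were of M1 cells (interferon-gamma with lipopolysaccharide) and M2c cells (interleukin-10). The sources used here give no dose or duration for any cytokine and do not name the agent that turned the monocytic cells into macrophages.

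IL-4 is a cytokine of T helper type 2 cells, mast cells and basophils. It binds the IL-4 receptor, made of IL4R with either the common gamma chain or IL13RA1, and the attached JAK kinases phosphorylate STAT6, a transcription factor that then enters the nucleus. In human monocytes and macrophages this pathway is known for inducing the low-affinity IgE receptor, CD1 molecules, lipid-oxidising and crosslinking enzymes and a set of CC chemokines, and for dampening inflammatory cytokines.

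Each group had 1 array, so no test was possible, no difference has a replicate check, and array, culture and RNA preparation cannot be told apart from the treatment. The M2a array detected 14280 of 47228 probes (30.24%) and the M0 array 14818 (31.38%), with median deposited intensities of 110.4 and 110.7 units. All 13 monocyte and macrophage markers were detected on both arrays, CD68 with intensities of 17937 on M2a and 16669.8 on M0. None of 8 T cell markers and none of 7 epithelial markers was detected on either array. Markers of other lineages were seen. Of 8 natural killer cell markers 2 were detected on both arrays, NKG7 (344.2 on M2a, 828.4 on M0) and GNLY (159 and 370.5). Of 7 B cell and plasma cell markers 2 were detected on each array. Of 9 granulocyte and mast cell markers 3 were detected on M2a and 4 on M0, and of 10 immature myeloid markers 7 and 8. The fibroblast marker DCN was detected on M0 alone. Of 14 dendritic cell markers 9 were detected on M2a and 8 on M0, and their summed level on the log2 scale was 11.41 on M2a and 10.37 on M0. As in any bulk sample, more cells of a type and more RNA per cell cannot be told apart.

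"Rose" and "fell" are used below of genes that differed by at least 2-fold, that is by 1 on the log2 scale, after background correction and quantile normalization. On that rule 404 genes (4.09%) rose and 498 (5.04%) fell, together 9.13%, and 8973 did not pass. These shares over all genes tested are to be set beside each list count below. The upper side reached further: 33 genes were at least 8-fold higher and 2 at least 8-fold lower. The middle of the distribution stayed close to 0, with a median of -0.01 and percentiles 25 and 75 at -0.39 and 0.32. In the deposited normalized values, to which no background correction had been applied, 170 genes rose and 125 fell, all of them among the 404 and the 498. The share of called genes that rose was thus 44.79%, against 57.63% in the deposited normalized values and 34.26% with the arrays scaled to a common median. Values that a gene is said to read are deposited non-normalized intensities, and differences are M2a minus M0. Where a gene was detected on 1 of the arrays, only a lower limit of its fold is given ("at least"), which holds for the background-corrected values. Of the 404 genes that rose 129 were detected on M2a alone, and for 56 of these the limit reached 2-fold. Of the 498 that fell 123 were detected on M0 alone, and for 46 of these the limit reached 2-fold.

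**Figure D1:**
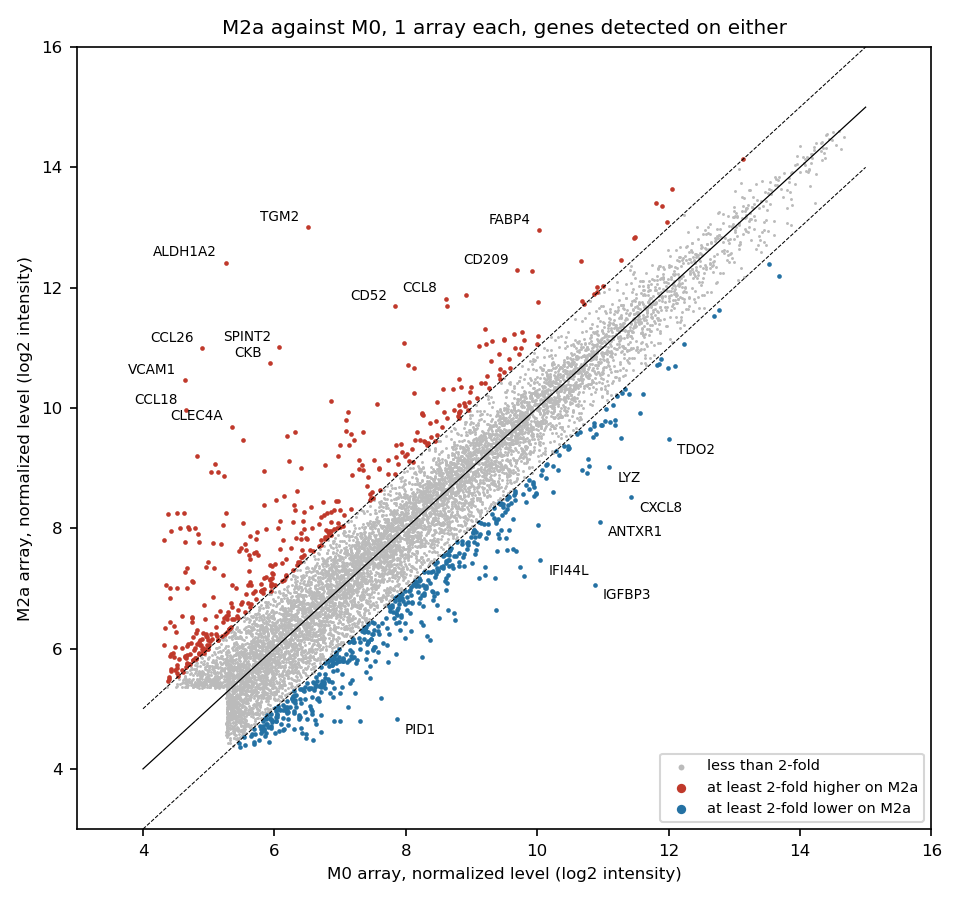
Normalized log2 intensity of 9875 genes on the M2a array (vertical) and the M0 array (horizontal), 1 array per group, with genes at least 2-fold higher on M2a (404) in red and at least 2-fold lower (498) in blue; dashed lines mark 2-fold. The largest rises, such as ALDH1A2, TGM2 and CCL26, lie near the detection floor on M0, while most other points keep to the diagonal.

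The receptor and its signalling chain were the first group examined. Of 16 detected members of the IL-4 and IL-13 receptor and STAT6 signalling list 1 rose and 0 fell. The other 15 members stayed under 2-fold, and the median was 0.02 beside -0.01 over all genes tested. The member that rose was IL13RA2, the decoy receptor for IL-13, at least 1.29-fold and not past 2-fold in the deposited normalized values. IL4R itself read 350.0 on M2a and 341 on M0, a difference of 0.16 log2 units, and STAT6 read 633 on M2a and 558 on M0, a difference of 0.25. IL13RA1, the partner chain that also serves IL-13, lay at -0.83 log2 units without passing. These 3 genes were named after their values were seen.

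Of 8 detected feedback inhibitors of the SOCS family and CISH, 2 rose and 1 fell, the other 5 did not pass, and the list had a median of -0.34. In the deposited normalized values 2 rose and 0 fell. CISH, a STAT-induced suppressor of cytokine signalling, read 347 on M2a, 99.8 on M1, 113 on M2c and 110.3 on M0, and was detected on M2a only, at least 6.56-fold above M0. SOCS1, which blocks JAK kinases, read 334 on M2a, 356 on M1, 123 on M2c and 114 on M0, at least 6.26-fold above M0. CISH was thus high on M2a alone, and SOCS1 on M2a and M1. SOCS4, detected on M0 and not on M2a, was at least 2.09-fold lower, and was not past 2-fold in the deposited normalized values.

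Genes known to respond to IL-4 and STAT6 had the highest median difference of the 58 lists. Of 22 detected members 17 rose and 0 fell, and the median was 3.02. Counted by sign, 21 members lay above 0 and 1 below, at -0.48 log2 units, and 1 member was detected on M0 and not on M2a. In the deposited normalized values 16 rose, with a median of 1.72. A gene detected on M2a and not on M0 could rise but not fall. Of the members 9 were of that kind, and among the 12 detected on both arrays 8 rose. Another 13 genes of the list were on the platform but detected on neither array, among them MRC1, CCL17, CCL24, ARG1, CD200R1 and CLEC7A. This list was drawn up with earlier results of these arrays known, so its direction is a description.

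ALDH1A2 and TGM2, enzymes of that list, had the largest differences among the 9875 genes. ALDH1A2, which makes retinoic acid from retinal, had an intensity of 6088 on M2a, 127 on M1, 149 on M2c and 127 on M0, at least 142-fold above M0, and its other detected probe differed by 5.79 log2 units. TGM2, a transglutaminase that crosslinks proteins, read 9037 on M2a, 1777 on M1, 169 on M2c and 189.6 on M0, a rise of 6.49 log2 units. Its 2 other detected probes averaged 2.44 log2 units, so the size of the TGM2 rise differed between probes while its direction did not. F13A1, the A subunit of coagulation factor XIII and also a transglutaminase, rose by 3.11 log2 units, with 2442 on M2a, 76.9 on M1, 423 on M2c and 368 on M0. ALOX15, a lipoxygenase that oxidises arachidonic and linoleic acid, read 309 on M2a and 108 on M0, at least 5.68-fold higher.

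Several cell-surface and secreted members followed the same direction. SPINT2, an inhibitor of serine proteases, rose by 4.93 log2 units, reading 2323 on M2a and 163 on M0. CLEC4A, an inhibitory lectin of dendritic cells and monocytes, rose by 4.34 log2 units, reading 978 on M2a and 130.3 on M0. RAMP1, a partner chain of the calcitonin receptor-like receptor, was at least 5.79-fold higher and MS4A4A, a tetraspan surface protein of macrophages, rose by 2.40 log2 units. The members with no call included PPARG, a nuclear receptor for fatty acids, which read 2238 on M2a and 1659.8 on M0 and differed by 0.34 log2 units.

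**Figure D2:**
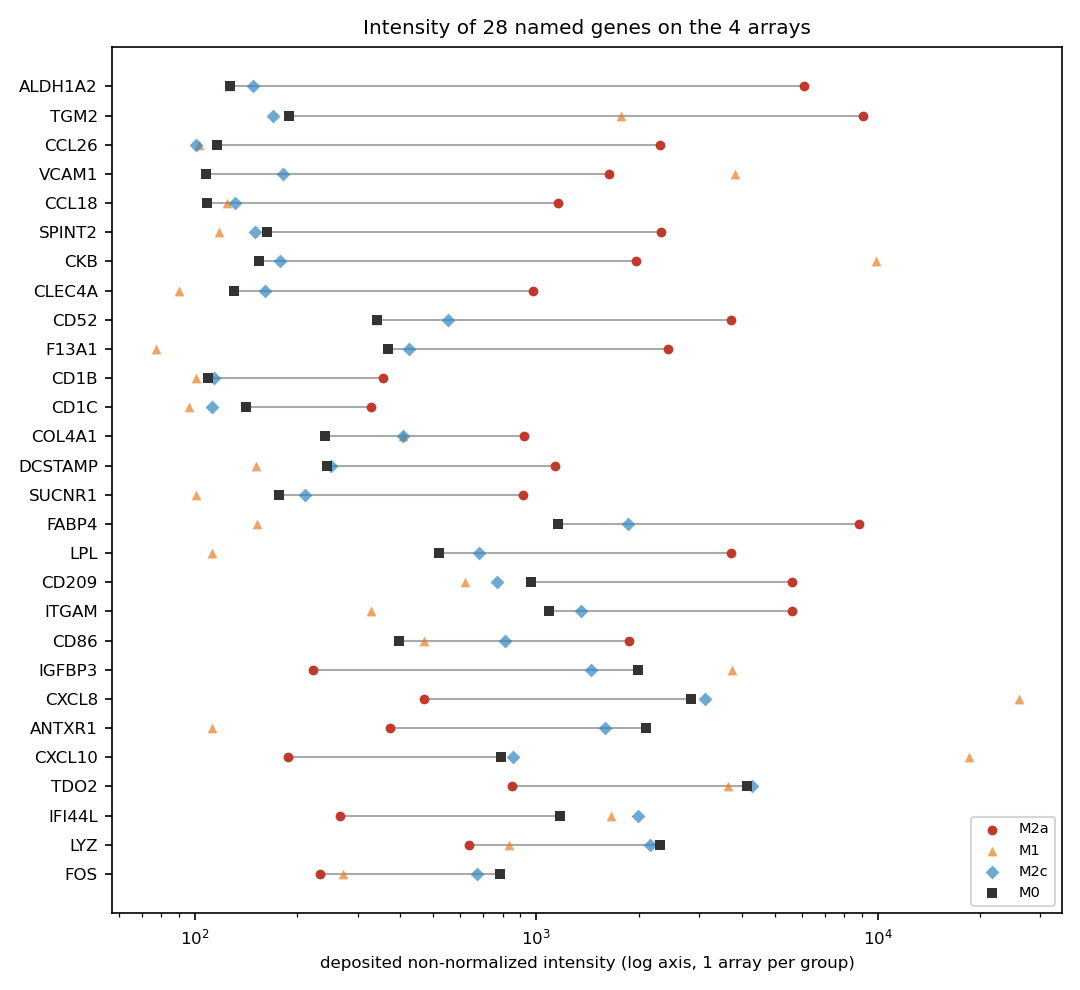
Deposited non-normalized intensity (log axis) of 28 named genes on the M2a, M1, M2c and M0 arrays, 1 array each, with a grey line joining M2a and M0. In the upper rows M2a lies to the right of M0 and in the lower rows, from IGFBP3 to FOS, to its left. Genes brightest on M1 include CKB, VCAM1, CXCL8, CXCL10 and IGFBP3.

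Chemokines were taken by family. Of 14 detected CC chemokines, 9 rose and 1, CCL20, fell, and the median was 1.57. In the deposited normalized values 7 rose and 0 fell, with a median of 1.02. Of the 14, 5 were detected on M2a and not on M0 and so could only rise, and among the 8 detected on both arrays 4 rose and 0 fell, with a median of 0.78. The CCR3 ligand CCL26, also called eotaxin-3, read 2306 on M2a, 103 on M1, 101 on M2c and 116 on M0, at least 53.1-fold above M0. CCL18, a chemokine of alternatively activated human macrophages, read 1162 on M2a, 124 on M1, 131 on M2c and 108 on M0, at least 26.0-fold above M0. M2a was by far the brightest array for both, and neither was detected on M0.

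CCL8, which attracts monocytes, read 4094 on M2a, 21711 on M1, 1248 on M2c and 514 on M0, a rise of 3.21 log2 units. CCL2, the main monocyte attractant, rose by 1.77 log2 units with 6285 on M2a, 20442 on M1, 2534 on M2c and 1742 on M0. Both were brightest on M1. CCL23, a CCR1 ligand, rose by 2.95 log2 units and was brightest on M2a, with 4257 on M2a, 420.3 on M1, 891 on M2c and 612 on M0. CCL5 rose by 1.36 log2 units, while CCL7 was at least 3.45-fold higher. CCL22, a CCR4 ligand, was at least 2.41-fold higher, and CCL14 at least 1.63-fold; these 2 did not pass in the deposited normalized values.

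Among 10 detected CXC and related chemokines 2 rose and 4 fell, with a median of -0.75, and in the deposited normalized values 0 rose and 2 fell. CXCL8, the main human neutrophil attractant, read 471 on M2a, 25928 on M1, 3122 on M2c and 2852 on M0, a fall of 7.49-fold. CXCL10, an interferon-induced CXCR3 ligand, read 187 on M2a, 18486 on M1, 857 on M2c and 792 on M0, a fall of 6.68-fold. For both genes M2a was the dimmest array. CXCL1, another neutrophil attractant, fell by 1.48 log2 units, just under 2-fold in the deposited normalized values.

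Chemokine receptors were few. Of 8 detected, 2 rose and 2 fell, or 0 and 1 in the deposited normalized values. CX3CR1, the fractalkine receptor, fell to 286 on M2a, against 958 on M0, by 2.07 on the log2 scale. CCR2, the receptor for CCL2, lay at -0.87 log2 units and CCR1 at 0.28, without passing.

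Antigen presentation was examined by pathway: class II, CD1 and class I. Of 15 detected genes of MHC class II and its loading 6 rose and 0 fell, with a median of 0.80, and the same counts held in the deposited normalized values. HLA-DMB, part of the exchange factor that loads peptides, rose by 2.59 log2 units with 631 on M2a and 182 on M0. HLA-DMA, its partner, rose by 1.28 log2 units and CD74, the invariant chain, by 1.18. HLA-DPA1 was at least 7.98-fold higher. HLA-DRB5 rose by 2.40 log2 units and HLA-DRB4 by 1.10, but the HLA-DRB genes are near-identical and their probes may share transcripts. HLA-DRA, the shared alpha chain, lay at 0.87 log2 units on its brightest probe and 4.14 on its other detected probe.

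CD1 proteins present lipids instead of peptides. Of 9 detected genes of this pathway 6 rose and 0 fell, and the median was 1.43. CD1D, which presents lipids to natural killer T cells, read 684 on M2a, 199 on M1, 282 on M2c and 261 on M0, a rise of 1.85 log2 units. CD1C read 329 on M2a, 96.5 on M1, 113 on M2c and 141 on M0, a rise of 2.25 log2 units. CD1B read 355 on M2a and 109.5 on M0, where it was not detected, at least 6.74-fold higher. M2a was the brightest array for all 3 genes. GM2A, a lipid transfer protein that helps load CD1, rose by 1.43 log2 units. CD1A rose by 1.54 log2 units and CD1E by 1.05, but neither passed in the deposited normalized values, where 4 of the 9 rose. CD1A, CD1B, CD1C and CD1E also stand in the dendritic cell marker list, of which 6 of 10 tested genes rose. Its members FLT3 (0.28 log2 units), ZBTB46 (-0.07) and LAMP3 (-0.10) did not pass, and CLEC9A, XCR1, CD207 and CCR7 were detected on neither array. CLEC10A went the other way without passing, reading 130.3 on M0 and 115.1 on M2a, where it was not detected. The part of such cells in these rises was not tested.

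None of 18 detected genes of MHC class I and peptide loading passed, with a median of -0.18. Beta-2-microglobulin (B2M), the class I light chain, read 17151 on M2a and 17496 on M0.

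Costimulators and checkpoint ligands went both ways, with 6 of 22 higher and 2 lower, or 3 and 1 in the deposited normalized values. CD86, the B7-2 ligand of CD28, rose by 2.54 log2 units, with 1866 on M2a, 471 on M1, 809 on M2c and 397 on M0. HAVCR2 (TIM-3), a checkpoint receptor that myeloid cells also carry, rose by 1.12 log2 units and CD276 (B7-H3) by 1.21. VSIR (VISTA), a checkpoint ligand of myeloid cells, fell to 177 on M2a, against 555 on M0, by 2.28 log2 units. CD80, the other B7 ligand of CD28, was at least 1.48-fold higher and did not pass in the deposited normalized values.

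The list of Fc and complement receptors, read with the related genes named here, held more rises than falls. Of 23 detected, 8 were higher and 1 lower, with a median of 0.55, or 6 and 1 in the deposited normalized values. Of the 23, 3 were detected on M2a and not on M0 and so could only rise, and 1 was the reverse. Among the 19 detected on both arrays 5 rose and 1 fell, with a median of 0.405. FCER2 (CD23), the low-affinity IgE receptor, read 217 on M2a, 99.1 on M1, 103 on M2c and 97.9 on M0, at least 3.36-fold above M0. FCER1A, the alpha chain of the high-affinity IgE receptor, read 401 on M2a, 95.2 on M1, 99 on M2c and 96.1 on M0, at least 7.81-fold above M0. Both IgE receptor genes were detected on M2a and not on M0. ITGAM (CD11b), the alpha chain of complement receptor 3, rose by 2.37 log2 units, reading 5602 on M2a and 1093 on M0. FCGR2A, an activating IgG receptor, rose by 1.34 log2 units, FCGBP, a mucin-like Fc-binding protein, by 2.20, and PTAFR, the receptor for platelet-activating factor, was at least 4.27-fold higher. C5AR1, the receptor for the complement fragment C5a, fell by 1.15 log2 units. FCER1G, the signalling chain that IgE and IgG receptors share, did not pass (-0.21 log2 units).

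Of 14 detected C-type lectin receptors 4 rose and 0 fell, with a median of -0.06. Among the 10 detected on both arrays 2 rose and 0 fell. CD209 (DC-SIGN), which binds mannose and fucose on microbes, rose by 2.60 log2 units, reading 5608 on M2a and 964 on M0. CLEC1A and CLEC4G were at least 2.16-fold and 2.26-fold higher and did not pass in the deposited normalized values, where 2 of the 14 rose. Of 18 LILR and SIGLEC receptors 1 rose and 1 fell, or 1 and 0 in the deposited normalized values. With background correction these counts were near the shares over all genes tested, of which 4.09% rose and 5.04% fell. SIGLEC10, an inhibitory receptor for sialic acids, rose by 3.12 log2 units. Of 24 scavenger and efferocytosis genes 3 rose and 3 fell, or 1 and 2 in the deposited normalized values. FOLR2, the macrophage folate receptor, was at least 6.90-fold higher, and AXL, a receptor tyrosine kinase for the uptake of apoptotic cells, fell to 286 on M2a, against 796 on M0.

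Of 15 detected integrins 3 rose and 1 fell, with 2 and 0 in the deposited normalized values. Of 17 other adhesion molecules 2 rose and 2 fell, with 2 and 1 in the deposited normalized values. VCAM1, a ligand of the integrin alpha-4 beta-1, read 1634 on M2a, 3814 on M1, 182 on M2c and 108 on M0, at least 36.7-fold above M0, and its 2 other detected probes averaged 2.46 log2 units. ICAM1, a ligand of the beta-2 integrins, rose by 2.23 log2 units and the laminin-binding chain ITGA3 by 1.95. CADM1, a homophilic cell adhesion molecule, fell to 333 on M2a, against 804 on M0, by 1.49 log2 units. The integrin chain ITGAV fell by 1.07 log2 units, which did not pass in the deposited normalized values. ITGB2, the beta chain shared by the leukocyte integrins, lay at -0.13 log2 units. Of 20 tetraspanins and MS4A proteins 4 rose and 3 fell, with 3 and 0 in the deposited normalized values. TSPAN7 rose by 3.95 log2 units, reading 845 on M2a and 137 on M0, and TSPAN4 by 1.28. The tetraspanin CD9 fell by 1.64 log2 units, which did not pass in the deposited normalized values.

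Cell fusion genes were mixed. IL-4 is known to drive the fusion of macrophages into multinucleated giant cells, and DCSTAMP, a membrane protein that fusion requires, rose by 2.81 log2 units, with 1137 on M2a, 151 on M1, 252 on M2c and 244 on M0. CKB, the brain-type creatine kinase, rose by 4.82 log2 units, with 1965 on M2a, 9898 on M1, 178 on M2c and 154 on M0. CTSK, the collagen-degrading cathepsin of osteoclasts, fell by 1.16 log2 units. In all, 4 of 16 rose and 3 fell, or 3 and 1 in the deposited normalized values.

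Lysosomal genes rose in a minority. Of 22 cathepsins and related proteases and inhibitors 4 rose and 1 fell, with a median of 0.17. CTSB, a cysteine protease of late endosomes, read 11968 on M2a, 4977 on M1, 6585 on M2c and 3692 on M0, a rise of 1.61 log2 units. CTSC, which activates granule serine proteases, read 11561 on M2a and 3866 on M0, a rise of 1.46 log2 units. CTSL rose by 1.01 log2 units and CTSZ by 1.12, the second only with background correction. Of 37 lysosomal hydrolases and proton pump subunits 4 rose and 2 fell, with a median of 0.19 and with 3 and 1 in the deposited normalized values. LIPA, the acid lipase that frees cholesterol from its esters, rose by 1.58 log2 units, SMPD1, acid sphingomyelinase, by 1.48, and NPC1, a cholesterol exporter of the lysosome, by 1.18. LYZ (lysozyme) fell to 635 on M2a, against 2302 on M0, by 2.07 log2 units.

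Proteases outside the cell and matrix genes also changed. MMP12, macrophage elastase, was detected on M2a (404) and not on M0 (108) and was at least 7.90-fold higher, and MMP7, matrilysin, was at least 6.45-fold higher. MMP9, a gelatinase, was bright on both arrays, 12989 on M2a and 11554 on M0, and differed by -0.01 log2 units. ADAMDEC1, a decysin of macrophages, fell by 1.48 log2 units, and RECK, a membrane inhibitor of metalloproteinases, by 1.43. Over the list 3 of 22 rose and 3 fell, or 2 and 2 in the deposited normalized values. Among the 15 detected on both arrays 1 rose and 2 fell. PLAU, urokinase, rose by 1.90 log2 units with 2346 on M2a and 683 on M0, one of 5 rises and 1 fall among 18 serine protease inhibitors, coagulation and fibrinolysis genes (3 and 0 in the deposited normalized values). COL4A1, a basement membrane collagen chain, rose by 2.53 log2 units with 923 on M2a and 240.3 on M0, and COL22A1, a collagen of tissue junctions, was at least 12.7-fold higher. Of 28 matrix genes 5 rose and 2 fell, or 2 and 0 in the deposited normalized values. Of the 28, 4 were detected on M2a and not on M0 and so could only rise, and 3 were the reverse. Among the 21 detected on both arrays 2 rose and 1 fell.

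**Figure D3:**
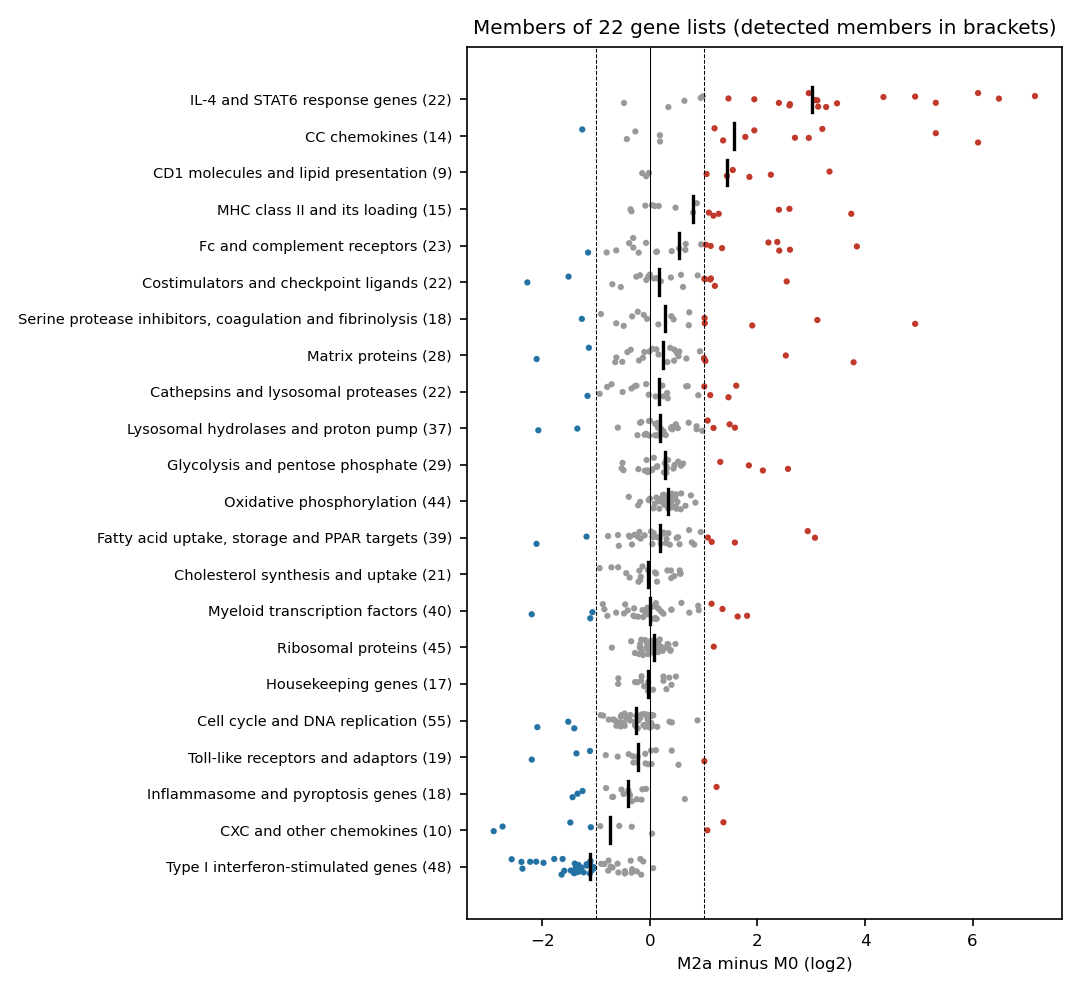
Difference M2a minus M0 (log2) of each detected member of 22 gene lists, with the list median as a black bar, dashed lines at 2-fold, red for at least 2-fold higher and blue for at least 2-fold lower. IL-4 response genes, CC chemokines and CD1 genes have medians above 1, type I interferon-stimulated genes a median of -1.11, and most other lists centre near 0.

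Metabolic lists held few calls each. In lipid handling, FABP4, a fatty acid carrier of adipocytes and macrophages, rose by 2.93 log2 units, with 8829 on M2a, 152 on M1, 1859 on M2c and 1162 on M0. LPL, which frees fatty acids from lipoproteins, rose by 3.07 log2 units, with 3728 on M2a, 112 on M1, 682 on M2c and 519 on M0. Both were dimmest on M1. PDK4, a brake on pyruvate oxidation, was at least 2.35-fold lower, but not past 2-fold in the deposited normalized values. Over 39 genes of fatty acid uptake, storage and PPAR targets 5 rose and 2 fell, with a median of 0.18 and with 3 and 1 in the deposited normalized values. ABCA1, the cholesterol exporter, fell to 991 on M2a, against 2447 on M0, while NR1H3, which encodes the oxysterol receptor LXR-alpha, rose by 1.14 log2 units. None of 21 detected genes of cholesterol synthesis and uptake passed.

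In sugar metabolism 4 of 29 genes rose, 0 fell and the median was 0.28, with the same counts in the deposited normalized values. HK3, the hexokinase of myeloid cells, read 370.4 on M2a and 137 on M0, a rise of 2.57 log2 units. PFKP, the platelet-type phosphofructokinase, rose by 1.84 log2 units and PFKFB4, which sets the level of its activator, by 1.31. FBP1, the enzyme that runs the phosphofructokinase step backwards in gluconeogenesis, rose by 2.10 log2 units. Bright members of the pathway did not pass, with ENO1 at 0.13 log2 units and LDHA at -0.09.

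Oxidative phosphorylation had no call. None of 44 detected subunits passed 2-fold, 40 of them lay above 0, and their median was 0.33, beside -0.01 over all genes tested. Cytochrome oxidase subunit COX4I1 read 14139 on M2a and 10032 on M0, a difference of 0.40 log2 units. SUCNR1, the receptor for extracellular succinate, rose by 3.28 log2 units, reading 916 on M2a, 101 on M1, 210.2 on M2c and 177 on M0. Together with GLUL, glutamine synthetase, which rose by 1.23 log2 units only with background correction, it gave 2 rises among 24 genes of the citric acid cycle and itaconate list.

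Retinoid handling followed ALDH1A2 in part. CRABP2, which delivers retinoic acid to its nuclear receptors, was detected on M2a and not on M0 and was at least 4.21-fold higher. DHRS3, which reduces retinal back to retinol, rose by 1.13 log2 units, with 1209.6 on M2a and 606 on M0. Of 13 detected members 3 rose and 0 fell. Among the 9 detected on both arrays 1 rose and 0 fell. The receptor genes RXRA (-0.27 log2 units) and RARA (0.02) did not pass.

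Prostanoid, tryptophan and iron genes had members in both directions. PTGS1 (COX-1) rose by 1.47 log2 units, reading 2007 on M2a and 758 on M0. On its brightest probe PTGS2 (COX-2) was detected on M0 and not on M2a and was at least 2.58-fold lower. It was not past 2-fold in the deposited normalized values, and its other detected probe differed by only -0.33 log2 units. PTGDS, which makes prostaglandin D2, fell by 1.40 log2 units, and PTGER4, a receptor for prostaglandin E2, by 1.33. TDO2, which opens the tryptophan ring as the first step to kynurenine, fell to 851 on M2a, against 4139 on M0, by 2.52 log2 units, and KYNU, an enzyme further down, by 1.35. HMOX1, haem oxygenase 1, rose by 1.74 log2 units, with 3878 on M2a and 1158 on M0. HAMP, the iron hormone hepcidin, was detected on M2a and not on M0 and was at least 5.59-fold higher. Over 25 iron and haem genes 4 rose and 1 fell, or 2 and 0 in the deposited normalized values.

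Transporters and small-molecule receptors held rises and falls. AQP9, a channel for water and glycerol, read 709.6 on M2a, 3797 on M1, 123 on M2c and 114 on M0, at least 15.2-fold above M0. SLC29A3, a lysosomal nucleoside transporter, rose by 2.44 log2 units, and SLC47A1, an exporter of organic cations, was at least 5.54-fold higher. SLC38A2 and SLC38A1, which import neutral amino acids, fell by 1.70 log2 units and 1.55, the second only with background correction. ADORA3, the A3 adenosine receptor, rose by 2.51 log2 units, with 1251 on M2a, 122 on M1, 678 on M2c and 299 on M0. GPR183, a receptor for oxysterols, fell by 1.24 log2 units. The 27 purinergic, adenosine and lipid receptor genes split into 4 rises and 4 falls, or 2 and 1 in the deposited normalized values.

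Type I interferon-stimulated genes had more falls than any other of the 58 lists. Of 48 detected members 29 fell and 0 rose, the other 19 stayed under 2-fold, and the median was -1.11. In the deposited normalized values 18 fell and 0 rose, and over the other alternatives the count of falls ranged from 24 to 28 with an offset of 50, a common median or the mean of all detected probes. IFI44L read 267 on M2a, 1659 on M1, 1987 on M2c and 1175 on M0, a fall of 5.94-fold. IFIT2, a protein that binds viral RNA, read 255 on M2a, 8440.0 on M1, 1133 on M2c and 985 on M0, a fall of 5.17-fold. For both genes M2a was the dimmest array.

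The falls covered the several steps of the antiviral response. Among the effectors, IFIT1 fell by 1.78 log2 units, IFIT3 by 2.11, the GTPases MX2 and MX1 by 1.62 and 1.13, the restriction factor TRIM22 by 2.23 and SAMD9, an inhibitor of poxvirus replication, by 2.39. Among the sensors of double-stranded RNA, IFIH1 (MDA5) fell by 1.40 log2 units and the kinase EIF2AK2 (PKR) by 1.38. IRF7, the transcription factor that amplifies interferon production, fell to 477 on M2a, against 1115 on M0. Some bright members did not pass. IFI6 read 13831 on M2a and 17781 on M0 (-0.47 log2 units) and IFITM3 read 7458 on M2a and 10944 on M0 (-0.78). BST2 (tetherin) lay at 0.06 log2 units, the only member above 0.

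**Figure D4:**
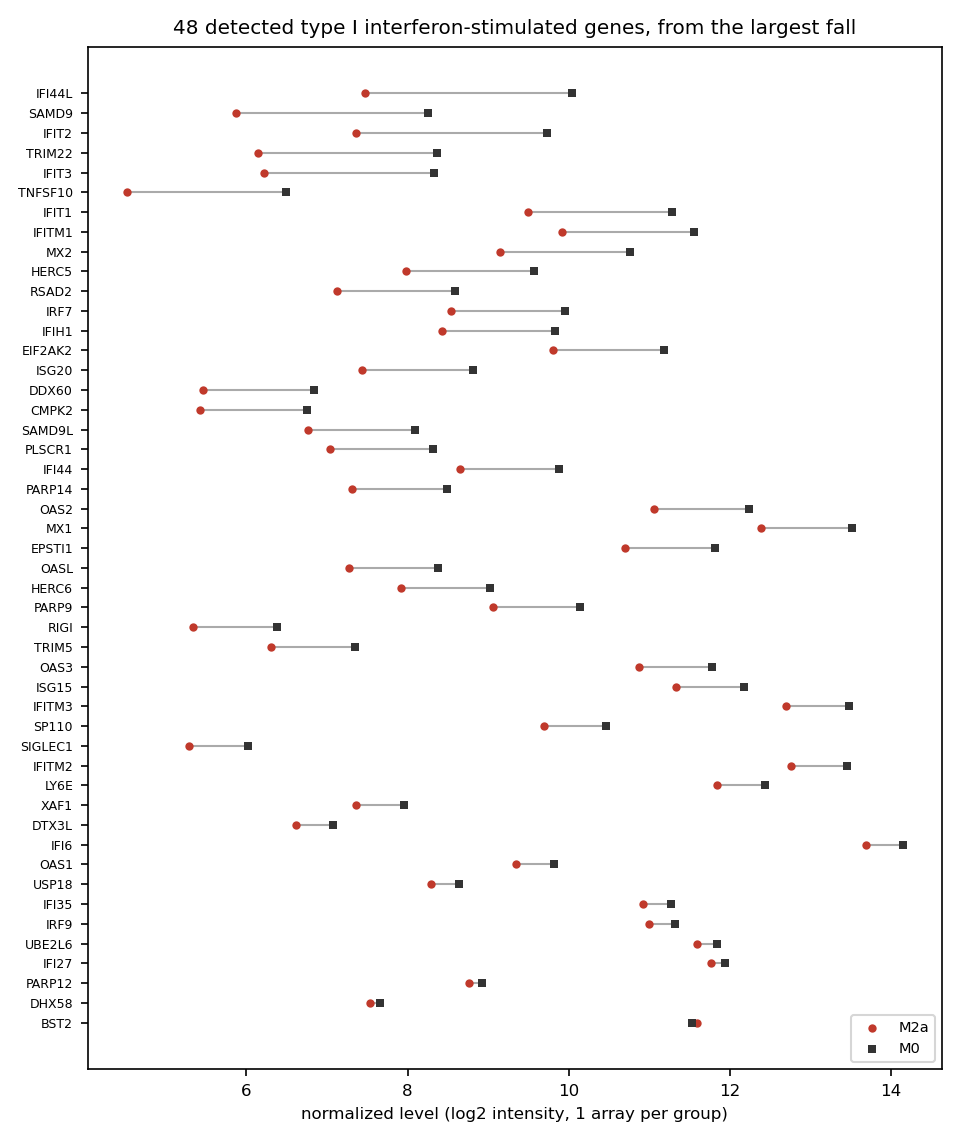
Normalized log2 intensity of the 48 detected type I interferon-stimulated genes on the M2a array (red circles) and the M0 array (black squares), 1 array per group, ordered by difference with the largest fall on top. In 47 rows M2a lies to the left of M0; BST2, the bottom row, is the exception at 0.06 log2 units.

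The letters upstream of these genes are shown because the genes of this list are known to be bound, in response to interferon, by a complex that recognises the interferon-stimulated response element. The element searched was GAAA, any 2 bases, then GAAA, on either strand, in the 250 bases before each transcription start (RefSeq, GRCh38.p14). Matches on the printed strand or its complement are in capitals. Only genes with a match are printed, so they do not stand for the whole list.
IFI44L, chr1:78620198-78620447, plus strand: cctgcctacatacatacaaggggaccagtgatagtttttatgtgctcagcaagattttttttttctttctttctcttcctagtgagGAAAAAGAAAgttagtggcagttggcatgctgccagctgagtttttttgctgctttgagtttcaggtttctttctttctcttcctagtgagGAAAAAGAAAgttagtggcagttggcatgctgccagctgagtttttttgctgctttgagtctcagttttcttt
SAMD9, chr7:93117980-93118229, minus strand: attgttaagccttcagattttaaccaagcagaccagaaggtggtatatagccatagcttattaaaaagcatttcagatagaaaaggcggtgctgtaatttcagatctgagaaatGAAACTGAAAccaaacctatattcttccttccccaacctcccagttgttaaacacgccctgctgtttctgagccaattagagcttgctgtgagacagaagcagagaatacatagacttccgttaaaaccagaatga
IFIT3, first of its listed starts, chr10:89327747-89327996, plus strand: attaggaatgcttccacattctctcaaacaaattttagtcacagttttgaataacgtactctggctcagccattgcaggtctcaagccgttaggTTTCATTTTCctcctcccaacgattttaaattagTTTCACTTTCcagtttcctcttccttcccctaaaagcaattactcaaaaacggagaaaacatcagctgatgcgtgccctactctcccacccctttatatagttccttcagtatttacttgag
IFIT1, chr10:89392373-89392622, plus strand: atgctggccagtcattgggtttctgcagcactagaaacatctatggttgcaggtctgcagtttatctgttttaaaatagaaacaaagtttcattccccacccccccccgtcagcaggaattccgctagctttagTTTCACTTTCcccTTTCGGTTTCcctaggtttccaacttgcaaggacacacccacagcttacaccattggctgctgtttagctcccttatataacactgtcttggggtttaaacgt
In IFI44L the 2 matches begin 164 and 73 bases before the start, and in SAMD9 the single match begins 136 bases before it. In IFIT1 the 2 matches begin 116 and 103 bases before the start.

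Counted over 300 bases (250 before and 50 after each start), the element occurred in 46 of 637 promoters of genes that fell (7.22%), in 357 of 11797 promoters of all genes tested (3.03%) and in 1255 of 35116 promoters of the whole table (3.57%). Promoters were listed for 407 of the 498 genes that fell and for 8090 of the 9875 tested. Without the members of the type I interferon list the share was 3.80% (23 of 605). In the deposited normalized values the share among genes that fell was 15.79%, with the members of that list included. Of the 125 genes that fell there 18 were members, and the share without them is not given. For the 29 members of the list that fell, 23 (79.31%) had a promoter in the table, which is under the 80% needed, so no share is given for them. For the genes that rose 308 of 404 (76.24%) had one, so the count for a STAT6-type element (TTC, any 4 bases, then GAA) is void as well. A match describes these letters and not a bound site.

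Other inflammatory lists had few calls, in both directions. Over all genes tested 4.09% rose and 5.04% fell. Of 24 detected interferon-gamma targets 2 rose and 2 fell, with a median of -0.06. SOCS1 and ICAM1 rose, and CXCL10 and SERPING1 fell, SERPING1 only with background correction. Toll-like receptor genes had 3 falls and 1 rise among 19, or 0 and 0 in the deposited normalized values. TLR8, an endosomal sensor of RNA, read 209.7 on M2a and 430.2 on M0, and TLR7 was detected on M0 and not on M2a. Of 18 inflammasome genes 3 fell and 1 rose, with the same counts in the deposited normalized values. IL1B, the cytokine that the inflammasome processes, fell to 213 on M2a, against 457 on M0, by 1.44 log2 units, CASP1, the protease that processes it, by 1.25, and IFI16, a DNA sensor, by 1.35. IL1RN, the antagonist of the IL-1 receptor, rose by 1.66 log2 units, with 2573 on M2a and 853 on M0, and IL18BP, which neutralises IL-18, rose by 1.24.

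IGFBP3, a carrier of insulin-like growth factors and the largest fall among genes detected on both arrays, read 222 on M2a, 3742 on M1, 1445 on M2c and 1989 on M0, a fall of 14.1-fold, and its other detected probe differed by -3.41 log2 units. IGFBP5, of the same family, rose by 2.26 log2 units, with 845 on M2a and 252 on M0. ANTXR1, an anthrax toxin receptor that binds collagen, read 373 on M2a, 113 on M1, 1591 on M2c and 2095 on M0, a fall of 7.17-fold. NPTX1, a neuronal pentraxin, fell by 2.59 log2 units. Of the genes detected on M0 and not on M2a, PID1, an adaptor that binds a lipoprotein receptor, was at least 5.69-fold lower and C3, the central complement component, at least 3.69-fold lower, the second not past 2-fold in the deposited normalized values.

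Among 40 myeloid transcription factors 4 rose and 3 fell, with a median of -0.001, and 3 and 3 in the deposited normalized values. The AP-1 factors went in opposite directions. JUN read 1128 on M2a and 504 on M0, a rise of 1.35 log2 units, and ATF3 rose by 1.63. FOS fell to 233 on M2a, against 786 on M0, by 2.20 log2 units. MAF, a macrophage factor, rose by 1.15 log2 units, and MYB, a factor of immature blood cells, fell by 1.11. NFE2, a factor of the megakaryocyte and erythroid lineages that came from the largest rises and not from this list, rose by 3.25 log2 units, with 1279.7 on M2a, 96.5 on M1, 436 on M2c and 217 on M0. SPI1 (PU.1), CEBPA and CEBPB, which set macrophage identity, lay at 0.40 log2 units, 0.10 and -0.14, without passing; of these SPI1 was named after its value was seen.

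Feedback regulators of MAP kinase and G protein signalling had 2 rises and 4 falls among 23, or 2 and 2 in the deposited normalized values. SPRED1, an inhibitor of Ras signalling, rose by 2.24 log2 units, with 795 on M2a and 245 on M0, and DUSP5, a phosphatase of ERK, rose by 1.83. RGS1 and RGS2, which shorten G protein signals, fell by 1.94 log2 units and 1.20. RGS16 and RGS18 were at least 2.48-fold and 1.74-fold lower and did not pass in the deposited normalized values.

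Few genes of growth and housekeeping passed. Of 55 detected cell cycle and replication genes 0 rose and 3 fell, with a median of -0.25, and 1 fell in the deposited normalized values. Over all 9875 genes tested 4.09% rose and 5.04% fell, and in the deposited normalized values 170 rose and 125 fell. The falls in this list were thus near the share over all genes. TOP2A, the topoisomerase of dividing cells, fell to 486 on M2a, against 1135 on M0. None of 17 housekeeping genes passed, with a median of -0.03 and a range from -0.59 to 0.48. Of 45 ribosomal protein genes 1 passed, RPS7, and it did not pass in the deposited normalized values. None of 10 metallothionein and zinc transporter genes passed.

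Genes that changed lay side by side in several clusters. Runs of at least 3 neighbouring tested genes that changed the same way numbered 18, and 2 in the deposited normalized values. The run with the most genes, 5, was the CD1 cluster on chromosome 1, where CD1D, CD1A, CD1B, CD1C and CD1E all rose within chr1:158178030-158357553 (GRCh38.p14). On chromosome 17, CCL2, CCL7 and CCL8 rose within 66.1 kb, and CCL5, CCL14, CCL23 and CCL18 within 200.5 kb. On chromosome 19, FCER2, CLEC4G and CD209 rose within 58.8 kb. IFIT2, IFIT3 and IFIT1 fell within 104.4 kb of chromosome 10, and RGS18, RGS1 and RGS2 within 653.8 kb of chromosome 1. Members of tandem families share sequence, so their probes may not be independent. Outside the named genes, SLAMF6 and CD84 rose next to SLAMF7, which did not pass in the deposited normalized values, and CD300A, CD300C and CD300LF rose together on chromosome 17; these were named after their values were seen.

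The agreement of probes was looked at where a gene had more than 1. Of 219 called genes with another detected probe the mean of the other probes had the same sign for 209 (95.43%), and was itself past 2-fold for 108 (49.32%). For genes that rose these numbers were 84 and 53 of 87, and for genes that fell 125 and 55 of 132. Probes of 1 array share the RNA, so this measures the probes and not the treatment.

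**Figure D5:**
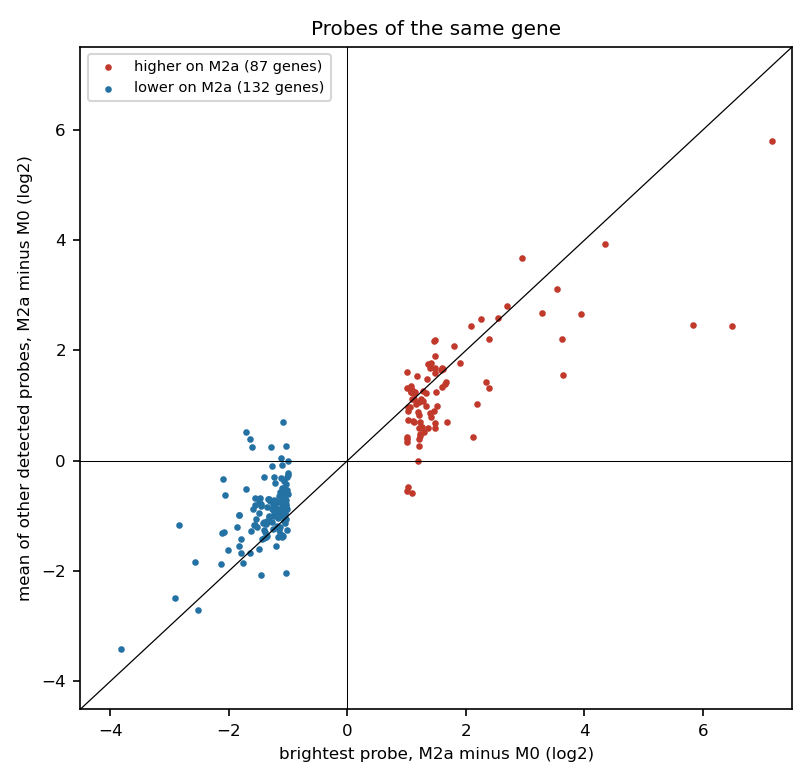
Difference M2a minus M0 (log2) of the brightest probe (horizontal) and the mean of the other detected probes of the same gene (vertical) for the 87 genes that rose and the 132 that fell and have more than 1 detected probe. Of 219 genes 209 lie in the quadrants of equal sign, and for 108 of them the other probes are past 2-fold as well.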

How the data were processed

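Total RNA of THP-1 macrophages was labelled with biotin and hybridised to Illumina BeadChips, 1 array for each of 4 groups. The authors deposited a non-normalized intensity and a detection p-value for each of 47228 probes, on a linear scale, and a normalized intensity table. GenomeStudio is named in the submitters' processing notes, with no version. The sorted columns of the deposited normalized intensity lay within 0.437% of the mean sorted raw signal, as quantile normalization gives, and the value table differed from it in 0 cells.

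Background was subtracted from the non-normalized signals with limma 3.58.1 in R 4.3.3 (normexp, negative controls inferred from the detection p-values, offset 16), before all 4 arrays were quantile-normalized and put on a log2 scale; tables and plots used Python 3.11.15, pandas 2.3.3, numpy 2.4.6 and matplotlib 3.10.9. The offset understates differences of dim genes. Of the probes, 30111 carried 1 gene symbol and 17117 several (8) or none here; 30072 symbols were matched by Entrez identifier to RefSeq (GRCh38.p14). Each of 20045 genes was represented by its probe with the highest mean level over the M2a and M0 arrays, the same arrays that were compared. Of these genes 6690 had several probes.

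A gene was called at 2-fold if detected (p below 0.01) on M2a or M0. A gene detected on 1 array only has a bound, its value there over the higher of its own value and the lowest detected probe on the other array. With 1 array per group no test was run, and the number of arrays limits the precision. Named genes were the 20 largest rises and falls among genes detected on both arrays, the 12 brightest detected on 1 array only on each side with a bound of at least 2-fold, the 10 brightest on M2a and, in each list, the members past 2-fold and the 4 brightest others, of which the text gives a part. The 58 gene lists, 10 marker lists and the comparison itself were chosen with earlier results of these data known. The procedure was run on simulated data with changes placed only in probes well above background, so it says nothing of calls near the floor. The 10 alternatives covered background, normalization, detection, fold and the choice of probe.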

Additional observations from a re-analysis of the deposited data

Results flagged for a closer look

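Probes without a single gene symbol were left out of the comparison, and they carried differences too. Of 3207 such probes detected on M2a or M0, 99 (3.09%) were at least 2-fold higher on M2a and 67 (2.09%) at least 2-fold lower. The largest read 15477 on M2a, 869 on M1, 533 on M2c and 186 on M0, a difference of 7.40 on the log2 scale. No gene is named for it here.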

How the results depend on the processing

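No named gene past 2-fold changed sign under the 10 alternatives, while genes near 0 such as MMP9, LDHA and CD68 did, and which direction had more genes turned with several settings. Without background correction, and equally in the deposited normalized values, 170 genes rose and 125 fell (57.63% higher), the interferon element was in 15.79% of promoters of genes that fell, and runs of neighbouring genes numbered 2. With an offset of 50 the counts were 230 and 237, with 6 runs. Scaling to a common median gave 357 and 685 (34.26% higher). At 1.5-fold 1185 rose and 1596 fell, with 129 runs, and at 3-fold 135 and 77 (63.68% higher), with 3 runs and the element in 17.72%. With genes detected on both arrays alone there were 8 runs, and with a detection p below 0.05 the genes detected on M2a alone numbered 767, beside 451. By construction a correction that removes less background shrinks differences of dim genes. Of 259 named genes past 2-fold, 156 stayed past it in the same direction under all 5 treatments of the values. Of 116 list counts, 52 moved by over 1.5 times in the deposited normalized values, 66 at 1.5-fold, 71 at 3-fold, 33 with genes detected on both arrays, 29 with an offset of 50, 13 with a common median and 5 with the mean of all detected probes. No paired analysis was possible because each group has 1 array, and no replicate could be left out for the same reason. Signal over background limits what can be said of genes near the detection floor.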

Other observations

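Several genes that rose were not described above. IL17RB, the receptor chain for IL-25, was detected on M2a (652) and not on M0 (122) and was at least 13.9-fold higher. CD24, a glycoprotein ligand of SIGLEC10, read 605 on M2a and 121 on M0, at least 12.7-fold higher. CD52, a small surface glycoprotein of leukocytes, rose by 3.86 log2 units, reading 3722 on M2a, 341 on M1, 552 on M2c and 343 on M0. GFRA2, the neurturin receptor, rose by 3.34 log2 units, and RNASE1, a secreted ribonuclease, by 2.69. C1QB, a chain of complement C1q, rose by 2.70 log2 units, while C1QC and C1QA, the other chains of the same protein, lay at 0.78 and 0.48. TGFA, a ligand of the EGF receptor, was detected on M2a and not on M0 and was at least 3.56-fold higher.

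Differences ran with the length of the gene's locus. The median difference M2a minus M0 was 0.13, 0.06, -0.03, -0.10 and -0.19 from the shortest to the longest of 5 groups of 1974 genes. In the shortest group 91 genes rose and 61 fell, and in the longest 86 rose and 161 fell. Over 5 groups by mean level the medians were -0.10, -0.01, 0.00, 0.01 and 0.00.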
